A study of Homo sapiens with 16 samples.

Results

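The 35 histone genes in a table of 14857 genes were examined in 4 clones of a human breast cancer line, 2 that re-express the RNA-binding protein tristetraprolin (TTP) and 2 with an empty vector. The genes were chosen by symbol. Symbols starting with HIST1H, HIST2H or HIST3H gave 24 clustered genes (HIST genes below), of which 21 are protein-coding and 3 are annotated as pseudogenes. Symbols starting with H1F, H2AF or H3F gave 11 genes of the replacement kind, of which 9 are protein-coding, 1 is an antisense RNA (H1FX-AS1) and 1 is a processed pseudogene (H3F3AP4). No listed symbol started with HIST4H or H2BF.

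Histones package DNA into nucleosomes, which hold pairs of the core histones H2A, H2B, H3 and H4, and linker histone H1 sits where the DNA enters and leaves. The clustered genes are replication-dependent: their transcripts are made mostly in S phase, lack introns and end in a stem-loop that is bound by the stem-loop binding protein SLBP in place of a poly(A) tail. Replacement histones are encoded by single genes whose transcripts are mostly spliced and polyadenylated, are made throughout the cell cycle and supply variants such as H2A.Z and H3.3. TTP, the product of ZFP36, binds AU-rich elements in 3′ untranslated regions (UTRs) and promotes decay of the mRNA.

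The line was MDA-MB-231, a triple-negative breast cancer line, and all 4 clones carried the tet-off system, by which an introduced gene is shut off while doxycycline is present, and were kept under G418 and hygromycin B. TTP_H3 and TTP_E11 are stable clones with the TTP plasmid, and EV_B and EV_A are stable clones with the empty vector. Each group is 1 clone with 4 libraries, labelled as biological replicates, so an arm holds 2 clones. The labels give maintenance in doxycycline at 2 µg/mL for the cells with TTP only, and a washout of at least 24 h for the cells in general. The TTP plasmid and this history of doxycycline cannot be told apart.

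Depth was 14380767 to 22066098 reads on the listed genes per library. Libraries were grouped by the library name, with which the sample titles disagree for 7 of the 8 TTP libraries. ZFP36 averaged 14370 ± 811 normalized counts in TTP_H3 and 10480 ± 337 in TTP_E11, against 222 ± 8.79 in EV_B and 259 ± 26.3 in EV_A (SD, n = 4 each), and every library named TTP lay above every library named EV. VIM, CD44, EGFR, FOSL1 and AXL, which this line is known to express, were all listed, with summed values of 78350 to 81810 normalized counts in TTP libraries and 94120 to 100900 in EV libraries. Of 7 genes taken as low in this line, ESR1 and PGR, the hormone receptor genes that it lacks, were not listed, nor were FOXA1 and CDH1. The other 3 were listed. ERBB2 averaged 2714 normalized counts in TTP_H3, 2862 in TTP_E11, 2173 in EV_B and 2307 in EV_A. GATA3 averaged 194, 193, 194 and 220 in the same order, and EPCAM 237, 247, 265 and 300. Of the immune, endothelial and fibroblast markers 4 of 11 were listed, each list summing to at most 164 normalized counts in any TTP library and 157 in any EV library. TTP_H3 replicate 3 and EV_B replicate 4 stood apart from the other libraries of their clones in a principal component analysis.

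Fewer histone transcripts were measured in the TTP clones in both classes. Of the 24 HIST genes, 17 fell in TTP relative to EV clones and 0 rose, and all 24 fitted changes were below 0, with a median of -0.67 on the log2 scale. Of the 11 replacement genes, 9 fell and 0 rose, and the 9 were all of the coding ones, with a median over the 11 of -0.36. Over all 14857 genes, 34.6% fell and 35.4% rose, and the median change was 0.001. No member rose at an unadjusted p under 0.05 either, nor with edgeR or DESeq2 on the recovered reads (0 of 35 in each). These calls are from limma on log2(normalized count + 1) with Benjamini-Hochberg adjustment over all genes and a threshold of 0.05, and the added 1 makes changes of genes with few reads look smaller. In such bulk libraries, fewer cells in S phase and less histone RNA per cell cannot be told apart.

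A stricter rule asked that each TTP clone differ from each EV clone in the same direction, past the threshold in all 4 contrasts. By this rule 10 HIST genes and 8 replacement genes were lower in TTP and 0 higher, where 19.5% of all genes were lower and 19% higher. The 8 TTP libraries lay wholly below the 8 EV libraries for 8 HIST genes and 7 replacement genes, where this held for 16.2% of all genes, and wholly above them for 0, where this held for 15.6% of all genes. The authors' deposited table, which compared the arms as a whole, lists 17 HIST and 9 replacement genes as lower at an adjusted p under 0.05, where it lists 31.7% of all genes as lower, and they were the same genes. Since an arm holds 2 clones, the error in these tests is that among cultures within a clone and does not cover how far clones differ. When reads were summed to 1 sample per clone, edgeR called 12 HIST and 6 replacement genes lower, where 14.6% of all genes were called lower, and HIST1H2BN, HIST1H2BO, HIST1H3B, HIST1H3C, HIST1H4H, H2AFV, H2AFZ and H3F3A lost their calls.

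**Figure D1:**
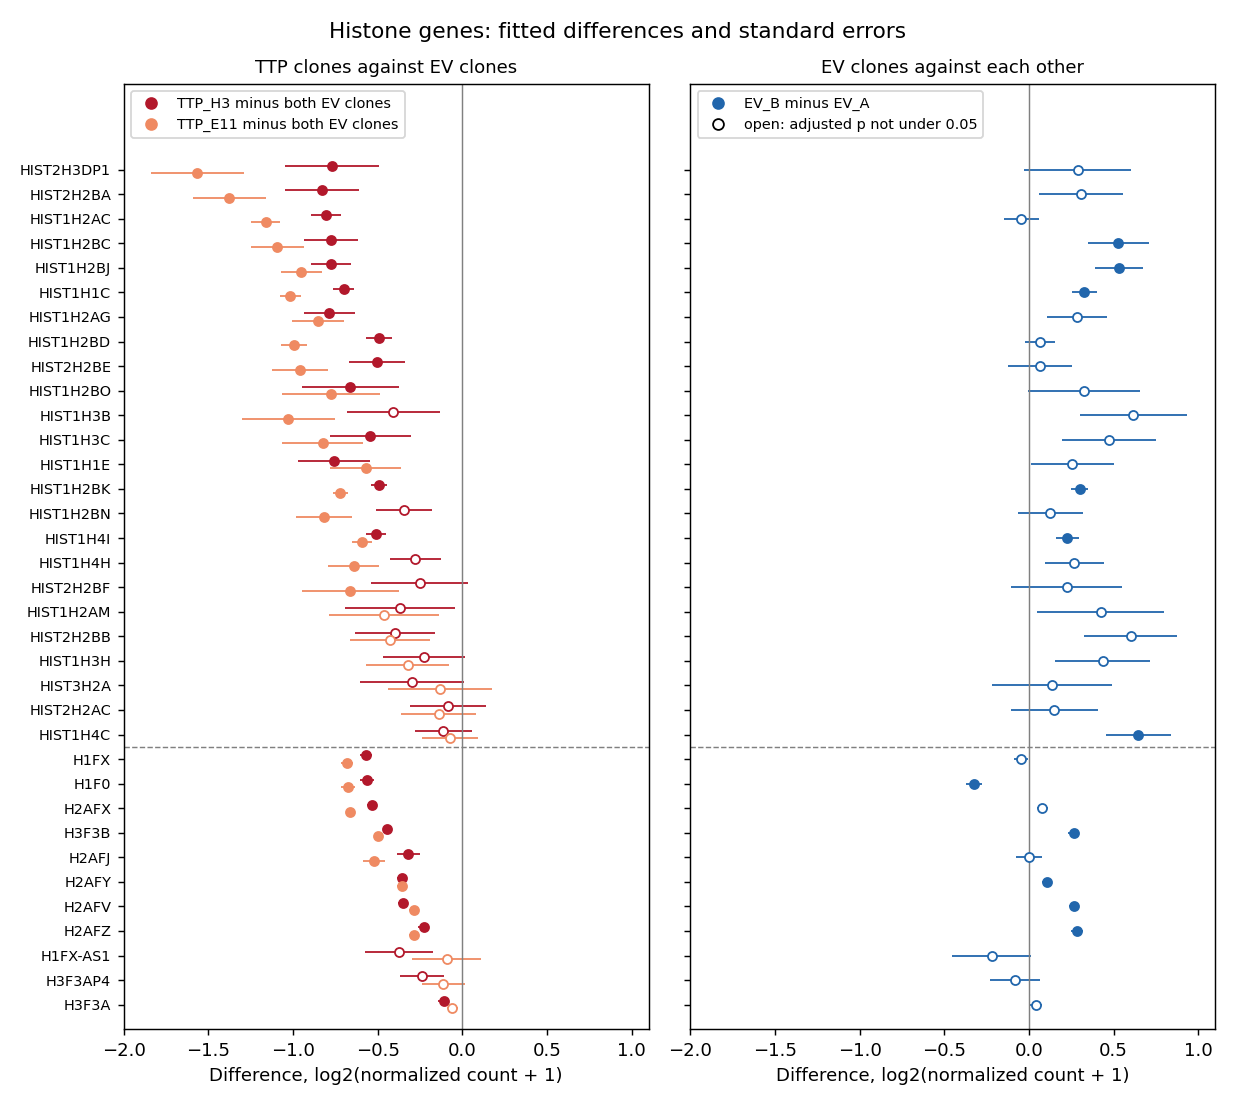
Fitted difference on the log2(normalized count + 1) scale, with its standard error, for each of the 35 histone genes (HIST genes above the dashed line, replacement genes below it). Left, TTP_H3 and TTP_E11 each against both EV clones; right, EV_B against EV_A; filled points have an adjusted p under 0.05. Every point on the left lies below 0, with medians over the HIST genes of -0.50 in TTP_H3 and -0.80 in TTP_E11, while 23 of 24 HIST points on the right lie above 0.

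The 2 listed linker histone genes of the large cluster on chromosome 6 both fell. HIST1H1C (chr6:26055787-26056428, minus strand, GRCh38), which encodes a linker histone H1 and was the second most abundant HIST gene, had 488, 548, 422 and 487 normalized counts in TTP_H3 and 394, 378, 385 and 400.0 in TTP_E11, against 951, 955, 910.4 and 735 in EV_B and 669, 734, 698 and 714 in EV_A. All TTP libraries lay below all EV libraries, with the TTP_E11 libraries below the TTP_H3 libraries, and EV_B replicate 4 lay next to the EV_A libraries. Its log2 change was -0.86 ± 0.051 (SE, limma adjusted p = 3.83e-15). HIST1H1E, another linker H1 gene, averaged 39.5 ± 10.7 normalized counts in TTP_H3 and 45.9 ± 17.1 in TTP_E11, against 73.7 ± 19.8 in EV_B and 60.9 ± 12.8 in EV_A (SD, n = 4 each). Its arms overlapped, and its log2 change was -0.66 ± 0.17 (SE, limma adjusted p = 0.00165).

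Among core histones, 7 of 8 coding HIST genes of H2B fell in TTP, beside 2 of 5 H2A, 2 of 3 H3 and 2 of 3 H4 members, where 34.6% of all genes fell. The count for H2A is near that share. Its uncalled genes HIST1H2AM, HIST2H2AC and HIST3H2A had at most 29, 32 and 22 reads per library. Differences between the histone types were not tested. HIST1H2BK (chr6:27146418-27146798, minus strand), which encodes an H2B, was the most abundant HIST gene and held 37.8% of the summed counts of the 21 coding HIST genes. It had 1092, 1124, 1195 and 1126 normalized counts in TTP_H3 and 973, 961, 946 and 988 in TTP_E11, against 1833, 1868, 1901 and 1505 in EV_B and 1391, 1482, 1452 and 1426 in EV_A. The TTP libraries were lower than every EV library, and within EV_B replicate 4 was the lowest. The log2 change was -0.61 ± 0.037 (SE, limma adjusted p = 1.27e-15).

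HIST1H2AC and HIST1H2BC encode an H2A and an H2B and lie head to head, with 219 bases between their annotated starts. HIST1H2AC (chr6:26124145-26139116, plus strand) had 232, 232, 220.5 and 250.0 normalized counts in TTP_H3 and 189, 194, 157 and 192 in TTP_E11, against 448, 445, 442 and 300.0 in EV_B and 393, 429.8, 454 and 389.6 in EV_A. The arms did not overlap, although EV_B replicate 4 was far below the other EV libraries. HIST1H2BC (chr6:26114873-26123926, minus strand) had 31.3, 27.5, 35.9 and 36.1 normalized counts in TTP_H3 and 23.8, 28.4, 20.6 and 32.3 in TTP_E11, against 69.3, 72.0, 64.7 and 65.8 in EV_B and 36.2, 45.5, 52.8 and 55.0 in EV_A. Its arms did not overlap either, and EV_A libraries lay between those of the TTP clones and those of EV_B. The log2 changes were -0.98 ± 0.071 (SE, limma adjusted p = 1.07e-12) for HIST1H2AC and -0.93 ± 0.13 (SE, limma adjusted p = 9.62e-08) for HIST1H2BC, the largest among the coding members.

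**Figure D2:**
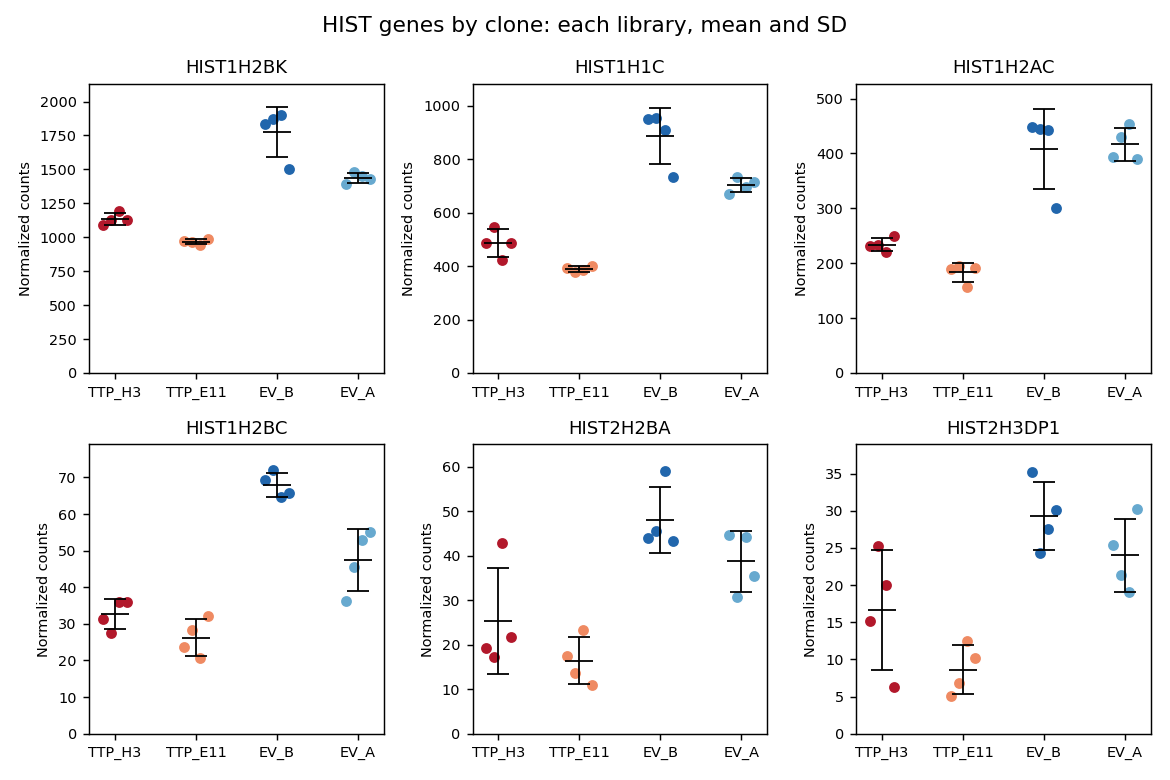
Normalized counts of 6 HIST genes in each of the 16 libraries (points), with the mean and SD of each clone (bars), for TTP_H3, TTP_E11, EV_B and EV_A. For HIST1H2BK, HIST1H1C, HIST1H2AC and HIST1H2BC every TTP point lies below every EV point, and EV_B replicate 4 is the lowest EV_B point for the first 3 of these; the arms overlap for the pseudogenes HIST2H2BA and HIST2H3DP1.

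The log2 changes in the other head-to-head pairs of H2A and H2B genes are given side by side. HIST1H2AG and HIST1H2BJ both fell, by 0.82 ± 0.12 and 0.86 ± 0.098 on the log2 scale (SE, limma adjusted p = 6.26e-07 and 2.3e-09). In the pair HIST2H2AC and HIST2H2BE, the H2B gene fell, with a log2 change of -0.73 ± 0.14 (SE, limma adjusted p = 1.43e-05). HIST2H2AC gave -0.11 ± 0.18 (SE, limma adjusted p = 0.596), at 13 to 32 reads per library. In the pair HIST1H2AM and HIST1H2BO, HIST1H2BO gave -0.72 ± 0.23 (SE, limma adjusted p = 0.00869), and HIST1H2AM gave -0.42 ± 0.27 (SE, limma adjusted p = 0.167), at 6 to 29 reads per library. Whether the 2 genes of a pair differed in their change was not tested.

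The remaining H2B genes were HIST1H2BD, HIST1H2BN and HIST2H2BF. HIST1H2BD averaged 202 ± 11.2 normalized counts in TTP_H3 and 143 ± 12.0 in TTP_E11, against 293 ± 27.5 in EV_B and 279.5 ± 25.4 in EV_A (SD, n = 4 each), without overlap between the arms. Its log2 change was -0.74 ± 0.063 (SE, limma adjusted p = 3.26e-12). HIST1H2BN gave -0.58 ± 0.14 (SE, limma adjusted p = 0.000309), with overlapping arms. HIST2H2BF did not pass the threshold, at -0.46 ± 0.23 (SE, limma adjusted p = 0.0815) and 4 to 23 reads per library. The H2A gene HIST3H2A, which lies outside the 2 main clusters, gave -0.21 ± 0.25 (SE, limma adjusted p = 0.457) at 4 to 22 reads.

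H3 and H4 transcripts were few except for HIST1H4I. This H4 gene averaged 379 ± 19.9 normalized counts in TTP_H3 and 359 ± 32.7 in TTP_E11, against 586 ± 42.3 in EV_B and 499.7 ± 16.2 in EV_A (SD, n = 4 each), with no overlap between the arms. Its log2 change was -0.55 ± 0.048 (SE, limma adjusted p = 4.89e-12). HIST1H4H fell less clearly, at -0.46 ± 0.12 (SE, limma adjusted p = 0.00136), with overlapping arms. HIST1H4C, also an H4 gene, averaged 49.2 ± 14.1 normalized counts in TTP_H3 and 50.4 ± 13.7 in TTP_E11, against 65.2 ± 5.62 in EV_B and 41.6 ± 7.68 in EV_A (SD, n = 4 each). The means of the TTP clones thus lay between those of the EV clones for HIST1H4C, and its log2 change was -0.093 ± 0.14 (SE, limma adjusted p = 0.557).

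The H3 genes HIST1H3B and HIST1H3C fell, with log2 changes of -0.72 ± 0.22 (SE, limma adjusted p = 0.00498) and -0.68 ± 0.2 (SE, limma adjusted p = 0.00251). They rested on 6 to 37 and 9 to 36 reads per library, and neither passed the threshold when EV_A alone was the control. HIST1H3H, an H3 gene whose annotated transcript holds both a stem-loop and a polyadenylation signal, gave -0.28 ± 0.2 (SE, limma adjusted p = 0.217). Across the HIST genes, 9 of the 10 with a mean of at least 50 normalized counts fell, against 8 of the 14 with a lower mean, where 34.6% of all genes fell.

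The pseudogenes gave the largest fitted changes at low counts. HIST2H3DP1 had 15.1, 25.2, 19.9 and 6.32 normalized counts in TTP_H3 and 5.01, 6.87, 12.5 and 10.1 in TTP_E11, against 35.2, 24.4, 27.6 and 30.1 in EV_B and 25.3, 21.4, 19.1 and 30.2 in EV_A. The TTP_E11 libraries lay below all EV libraries, whereas those of TTP_H3 overlapped them. HIST2H2BA had 19.2, 17.2, 42.9 and 21.7 normalized counts in TTP_H3 and 17.6, 13.7, 23.2 and 11.1 in TTP_E11, against 44.0, 45.5, 59.0 and 43.2 in EV_B and 44.6, 30.6, 44.2 and 35.5 in EV_A. TTP_H3 replicate 3 lay among the EV libraries and the other 7 TTP libraries lay below them. The log2 changes were -1.17 ± 0.22 (SE, limma adjusted p = 2.67e-05) for HIST2H3DP1 and -1.10 ± 0.18 (SE, limma adjusted p = 1.52e-06) for HIST2H2BA, and HIST2H2BB gave -0.41 ± 0.19 (SE, limma adjusted p = 0.0569), which passed with edgeR (adjusted p = 0.0374). HIST genes of a type have similar coding sequences, the pseudogenes included, and the sources used here do not say how reads that match several genes were counted, so values of single members are uncertain.

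The 3′ ends are shown because they set how these transcripts are made and captured. The labels do not state whether RNA was selected by poly(A) or depleted of ribosomal RNA. In GENCODE 29 (GRCh38), a pattern of 16 bases for the histone stem-loop was matched in the 3′ UTR of 11 HIST genes and of H2AFX. These were 12 of the 20 listed genes with a match, which make up 0.159% of the 12541 listed genes with an annotated 3′ UTR of at least 30 bases. The other 8 were not members, and a match of letters does not show a stem-loop that forms or is bound. A further 7 coding HIST genes, HIST1H1C and HIST1H2BK among them, have no annotated 3′ UTR, so the search does not cover them. Capitals below mark the stem and loop, which came in 6 different sequences among the members.
HIST1H2AC, chr6:26124663-26124690, plus strand: cccaaaGGCTCTTTTCAGAGCCccccta
HIST1H2BC, chr6:26123466-26123493, minus strand: cccaaaGGCTCTTTTAAGAGCCacccag
HIST1H2BD, chr6:26158581-26158608, plus strand: cccaaaGGCTCTTTTAAGAGCCacgcat
HIST1H2AG, chr6:27133509-27133536, plus strand: accaacGGCTCTTTTCAGGGCCacccac
HIST2H2BE, chr1:149886182-149886209, minus strand: tccaaaGGCTCTTTTCAGAGCCacccac
HIST1H4I, chr6:27139648-27139675, plus strand: taaaaaGGCCCTTTTTAGGGCCcctaag
HIST1H4H, chr6:26285125-26285152, minus strand: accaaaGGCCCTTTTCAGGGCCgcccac
H2AFX, chr11:119094892-119094919, minus strand: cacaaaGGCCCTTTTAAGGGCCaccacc
Of the 11 HIST genes with a match of the stem-loop in the annotation, 8 fell, with a median log2 change of -0.58 over the 11, where 34.6% of all genes fell. Of the 8 HIST genes with the polyadenylation signal AATAAA (searched on the transcript's strand, within 50 bases of a transcript end), 7 fell, with a median of -0.74, and 6 of the 8 have a transcript with both ends. That signal was found in 75.4% of the listed genes with such a UTR. Most members fell whichever annotated end they had, and the groups share members.

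The promoters of 4 members are shown next, of HIST1H2BC because it shares its upstream bases with its head-to-head neighbour HIST1H2AC, and of HIST1H2BK, HIST1H1C and H3F3B because they are among the most abundant of their class. The sequences are from RefSeq (GRCh38.p14), in which a promoter was matched for 20 HIST and 8 replacement genes. Capitals mark any of 4 motifs, each searched on both strands: the octamer ATTTGCAT that is known to be shared by H2B genes, the box CCAAT bound by nuclear factor Y, the TATA box as TATAAA, and the H1 box as AAACACA. Matches of the TATA box on opposite strands can overlap by up to 4 bases and then count separately. The HIST1H2BC sequence covers the whole interval to the annotated start of HIST1H2AC and so includes the upstream bases of that gene on the opposite strand.
HIST1H2BC, chr6:26123877-26124176, minus strand: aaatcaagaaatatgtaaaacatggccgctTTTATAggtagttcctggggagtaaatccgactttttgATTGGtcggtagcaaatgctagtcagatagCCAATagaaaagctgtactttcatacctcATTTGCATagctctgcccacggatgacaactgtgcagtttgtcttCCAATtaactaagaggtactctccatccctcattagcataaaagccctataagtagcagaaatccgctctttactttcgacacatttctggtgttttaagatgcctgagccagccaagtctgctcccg
HIST1H2BK, chr6:27146806-27147105, minus strand: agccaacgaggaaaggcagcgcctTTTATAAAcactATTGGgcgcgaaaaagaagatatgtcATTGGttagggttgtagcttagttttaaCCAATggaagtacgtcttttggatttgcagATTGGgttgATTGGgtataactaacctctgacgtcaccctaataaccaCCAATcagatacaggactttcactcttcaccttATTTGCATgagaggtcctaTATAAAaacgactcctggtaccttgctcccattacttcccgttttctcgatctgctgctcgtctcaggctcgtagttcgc
HIST1H1C, chr6:26056421-26056720, minus strand: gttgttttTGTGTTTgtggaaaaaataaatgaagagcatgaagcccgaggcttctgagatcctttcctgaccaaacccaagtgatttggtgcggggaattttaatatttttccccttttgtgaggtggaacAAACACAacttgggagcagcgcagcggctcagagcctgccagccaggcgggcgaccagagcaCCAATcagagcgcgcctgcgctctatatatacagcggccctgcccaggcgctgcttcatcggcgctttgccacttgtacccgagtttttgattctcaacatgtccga
H3F3B, chr17:75779730-75780029, minus strand: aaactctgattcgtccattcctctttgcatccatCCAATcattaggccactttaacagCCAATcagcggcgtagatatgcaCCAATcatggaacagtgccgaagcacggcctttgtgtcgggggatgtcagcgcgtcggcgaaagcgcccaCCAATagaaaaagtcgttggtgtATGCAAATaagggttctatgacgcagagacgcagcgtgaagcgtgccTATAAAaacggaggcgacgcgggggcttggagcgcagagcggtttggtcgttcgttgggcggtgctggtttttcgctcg
The octamer was present in 10 of the 20 HIST promoters and in 1 of the 8 replacement promoters, that of H3F3B, against 1.77% of 35116 RefSeq promoters of the same length. CCAAT was present in 19 of 20 HIST and 7 of 8 replacement promoters, against 34.6% of all. TATAAA was present in 13 of 20 HIST and 4 of 8 replacement promoters, against 11.5%, and AAACACA in 3 of 20 and 1 of 8, against 5.64%. For HIST1H2BC and HIST1H2BO the only TATAAA match, at -220 and -214 from the start, is on the opposite strand. It is the match at -31 in the promoters of their neighbours HIST1H2AC and HIST1H2AM. Of the 11 members with the octamer, 8 fell in TTP, where 26 of all 35 members and 34.6% of all genes fell. Whether the octamer bears on the change was not tested. Promoters of head-to-head pairs share bases, so these counts are not independent, and a match of letters does not show a bound site.

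All 9 coding replacement genes fell, with a median log2 change of -0.42. H1FX (chr3:129314771-129316277, minus strand) and H1F0 (chr22:37805093-37807436, plus strand) encode linker histones, H1F0 being known from differentiated and resting cells. H1FX had 1904, 2170, 2014 and 1939 normalized counts in TTP_H3 and 1742, 1847, 1821 and 2018 in TTP_E11, against 3011, 3020, 2815 and 2864 in EV_B and 3037, 3033, 2985 and 3049 in EV_A. H1F0 had 3316, 3205, 3816 and 3188 normalized counts in TTP_H3 and 3013, 3065, 3178 and 3240 in TTP_E11, against 4646, 4512, 4688 and 4026 in EV_B and 5584, 5551, 5521 and 5671 in EV_A. For both genes all TTP libraries lay below all EV libraries, and for H1F0 the EV_B libraries lay below those of EV_A. The log2 changes were -0.63 ± 0.03 (SE, limma adjusted p = 2e-18) for H1FX and -0.62 ± 0.035 (SE, limma adjusted p = 6.17e-14) for H1F0. H1FX-AS1, annotated on the opposite strand over H1FX, gave -0.23 ± 0.17 (SE, limma adjusted p = 0.209) at 18 to 57 reads. Whether counting used strand is not stated, so reads of H1FX and H1FX-AS1 cannot be told apart.

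H2AFX (chr11:119093854-119095467, minus strand), which encodes the H2A variant phosphorylated at DNA breaks, stands between the classes, as its gene is alone but its transcript carries the stem-loop shown above. It had 4545, 5064, 4708 and 4721 normalized counts in TTP_H3 and 4433, 4215, 4301 and 4463 in TTP_E11, against 7017, 7205, 7085 and 6997 in EV_B and 6800, 6552, 6716 and 6703 in EV_A. All TTP libraries lay below all EV libraries, and its log2 change was -0.60 ± 0.023 (SE, limma adjusted p = 6.89e-21). H2AFJ, which encodes an H2A found to accumulate in senescent cells, averaged 377 ± 32.7 normalized counts in TTP_H3 and 328 ± 35.6 in TTP_E11, against 471 ± 36.2 in EV_B and 470.0 ± 23.2 in EV_A (SD, n = 4 each). The arms did not overlap, and the log2 change was -0.42 ± 0.054 (SE, limma adjusted p = 2.78e-08). H2AFY, the gene of a macroH2A linked to silent chromatin, averaged 5006 ± 153 normalized counts in TTP_H3 and 5004 ± 104 in TTP_E11, against 6655 ± 152 in EV_B and 6186 ± 48.5 in EV_A (SD, n = 4 each), again without overlap. Its log2 change was -0.36 ± 0.022 (SE, limma adjusted p = 6.74e-16).

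The H2A.Z genes H2AFZ and H2AFV fell by smaller amounts. H2AFZ (chr4:99948086-99950388, minus strand), the most abundant replacement gene, had 7142, 7290, 8089 and 7092 normalized counts in TTP_H3 and 6793, 7150, 7212 and 7245 in TTP_E11, against 9283, 9313, 10050 and 9604 in EV_B and 7958, 7875, 7804 and 7775 in EV_A. The EV_B libraries were highest, and TTP_H3 replicate 3 lay above all EV_A libraries, so the arms overlapped. H2AFV averaged 4341 ± 90.1 normalized counts in TTP_H3 and 4546 ± 95.9 in TTP_E11, against 6077 ± 90.5 in EV_B and 5061 ± 79.1 in EV_A (SD, n = 4 each), without overlap between the arms. The log2 changes were -0.26 ± 0.025 (SE, limma adjusted p = 9.36e-11) for H2AFZ and -0.32 ± 0.021 (SE, limma adjusted p = 7.7e-15) for H2AFV. With reads summed per clone, edgeR's adjusted p was 0.126 for H2AFZ and 0.0598 for H2AFV.

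**Figure D3:**
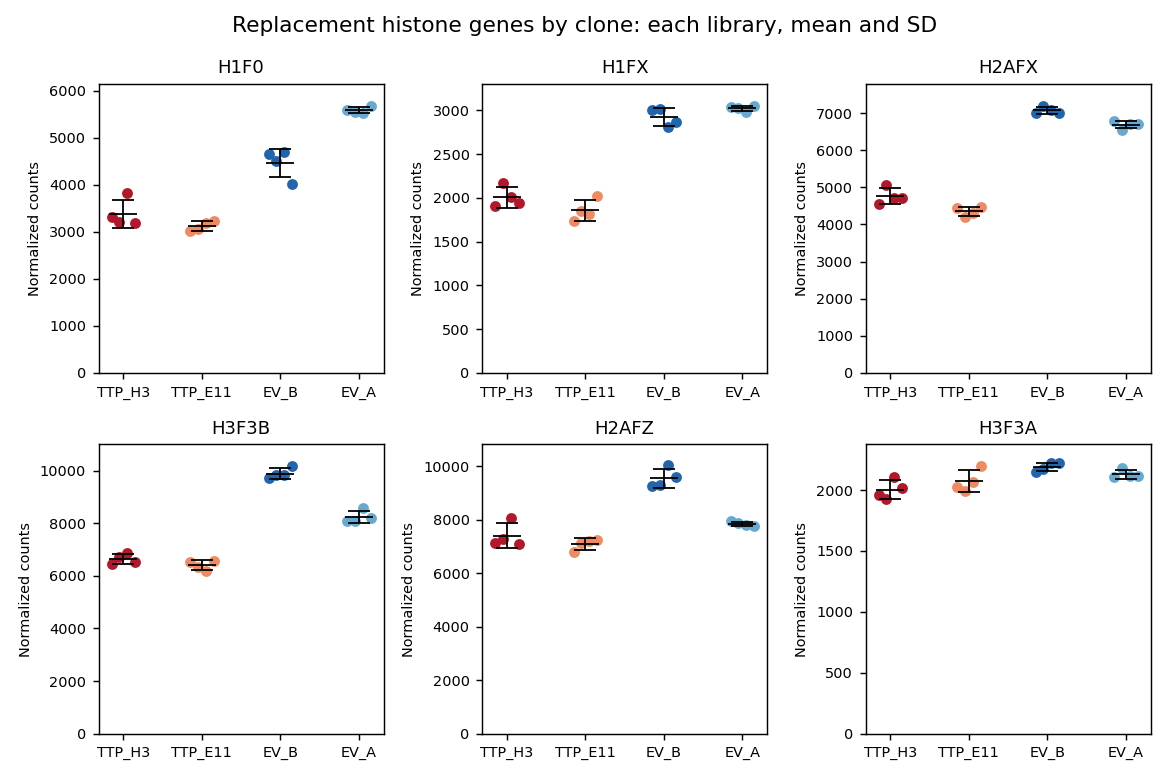
Normalized counts of 6 coding replacement histone genes in each of the 16 libraries (points), with the mean and SD of each clone (bars), for TTP_H3, TTP_E11, EV_B and EV_A. The TTP points lie below the EV points for H1F0, H1FX, H2AFX and H3F3B, and the arms overlap for H2AFZ and H3F3A.

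H3.3 is encoded by H3F3A and H3F3B, and the arms differed mainly in H3F3B. H3F3B (chr17:75776434-75785893, minus strand) had 6433, 6721, 6853 and 6516 normalized counts in TTP_H3 and 6517, 6330, 6163 and 6571 in TTP_E11, against 9710, 9814, 9845 and 10170 in EV_B and 8087, 8091, 8577 and 8180 in EV_A. The TTP libraries were lowest, the EV_A libraries were above them and the EV_B libraries were highest, with a log2 change of -0.47 ± 0.022 (SE, limma adjusted p = 1.02e-18). H3F3A (chr1:226061851-226072001, plus strand) had 1963, 1926, 2110 and 2014 normalized counts in TTP_H3 and 2027, 1994, 2069 and 2198 in TTP_E11, against 2150, 2171, 2218 and 2222 in EV_B and 2107, 2185, 2112 and 2119 in EV_A. Its arms overlapped, and its log2 change was -0.085 ± 0.027 (SE, limma adjusted p = 0.00532), a call that was lost with scaling to the total of the listed genes (-0.005, limma adjusted p = 0.872) and with reads summed per clone (-0.079, edgeR adjusted p = 0.428).

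The ratio of H3F3B to H3F3A counts was 2.98 to 3.49 in TTP libraries and 3.70 to 4.58 in EV libraries. The log2 ratio differed by -0.385 between the arms (exact two-sided permutation test, 8 against 8 libraries, p = 0.000155, the smallest it can give). This pair was chosen for the test after the values were seen, and the test counts libraries of 4 clones as independent. Within arms the ratio averaged 3.31 ± 0.12 in TTP_H3 and 3.09 ± 0.123 in TTP_E11, against 4.51 ± 0.0557 in EV_B and 3.87 ± 0.148 in EV_A (SD, n = 4 each). The sum of both genes was 8634 ± 242 normalized counts in TTP_H3 and 8467 ± 240.1 in TTP_E11, against 12070 ± 226 in EV_B and 10360 ± 221 in EV_A. H3F3AP4, a processed pseudogene resembling H3F3A, gave -0.17 ± 0.1 (SE, limma adjusted p = 0.138).

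The TTP recognition heptamer TATTTAT was searched on the transcript's strand in annotated 3′ UTRs, because TTP is the introduced protein. It was found in 37.2% of the listed genes with such a UTR. Among the members it occurred in H3F3B, H3F3A, H2AFV and HIST3H2A, and the sites of the 3 replacement genes are given with the heptamer in capitals.
H3F3B, chr17:75777318-75777344, minus strand: aggaacctttTATTTATaaagatactg
H3F3B, chr17:75777828-75777854, minus strand: tgggggatttTATTTATaagggctcta
H3F3A, chr1:226066487-226066513, plus strand: gttctagagaTATTTATgtatttgaga
H3F3A, chr1:226067038-226067064, plus strand: cttcagttctTATTTATtactaaatac
H2AFV, chr7:44829879-44829905, minus strand: taaaatattcTATTTATgtttgacctt
The fitted log2 changes of these 3 genes were -0.47, -0.085 and -0.32. The 6 coding replacement genes without a match gave -0.63 (H1FX), -0.62 (H1F0), -0.60 (H2AFX), -0.42 (H2AFJ), -0.36 (H2AFY) and -0.26 (H2AFZ). H3F3B and H3F3A each hold 2 matches. A match of letters is not a bound site, and binding of TTP was not measured.

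Summed over the coding members, HIST counts averaged 2922 ± 92.4 normalized counts in TTP_H3 and 2466 ± 57.0 in TTP_E11, against 4721 ± 481 in EV_B and 3939 ± 118 in EV_A (SD, n = 4 each). Replacement counts averaged 35910 ± 1052 in TTP_H3 and 34780 ± 758 in TTP_E11, against 49310 ± 478 in EV_B and 45240 ± 214 in EV_A. For both sums each TTP library was below each EV library. HIST genes made up 7.53% of the summed histone counts in TTP_H3 and 6.62% in TTP_E11, against 8.73% in EV_B and 8.01% in EV_A. The labels do not state whether RNA was selected by poly(A), which would capture few transcripts that end in the stem-loop. This share of counts is therefore not the share of HIST transcripts in the cells. This share ranged over 7.11% to 7.73% in TTP_H3 libraries and 7.53% to 9.31% in EV_B libraries, which overlap, while the TTP_E11 libraries, at 6.50% to 6.71%, lay below all others. The difference between the classes was not tested, since a score over members chosen with results known carries no p.

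**Figure D4:**
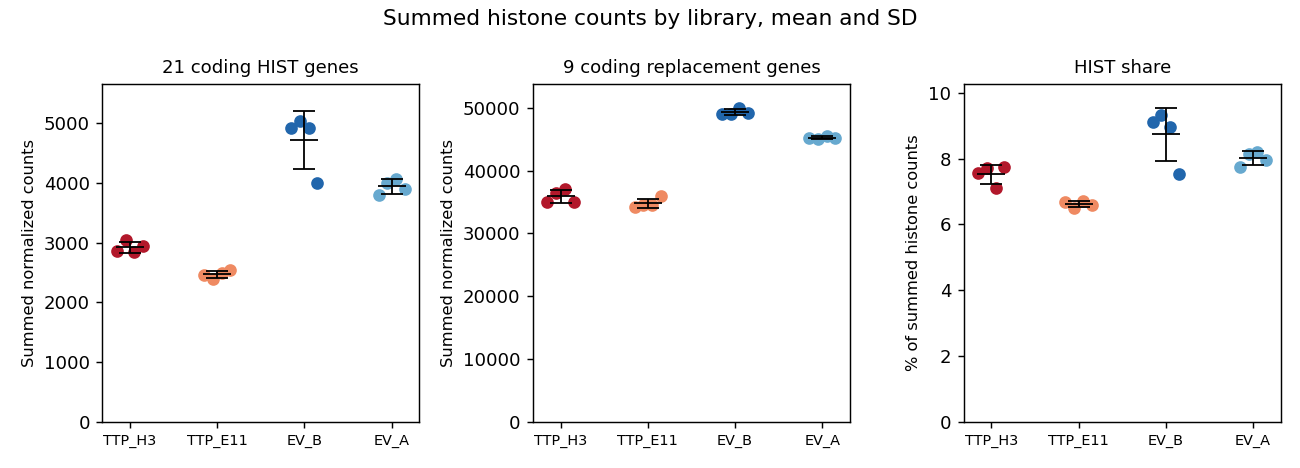
Summed normalized counts of the 21 coding HIST genes (left) and the 9 coding replacement genes (middle), and the HIST percentage of their total (right), for each library (points) with the mean and SD of each clone (bars). Both sums are lower in every TTP library than in every EV library, and the low EV_B point for HIST is replicate 4, at 4005 normalized counts.

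Few genes carry these sums. HIST1H2BK and HIST1H1C held 37.8% and 17.6% of the HIST sum over all libraries, and HIST1H4I 13.0%. H2AFZ and H3F3B held 19.3% and 18.8% of the replacement sum. Per kilobase of annotated exon, HIST1H2BK averaged 2759 normalized counts in TTP and 4218 in EV libraries, near H2AFX at 2823 in TTP and 4265 in EV libraries. On the same scale H2AFZ had 3149 in TTP and 3781 in EV libraries, and H3F3B had 1062 in TTP and 1477 in EV libraries. The annotated exon of HIST1H2BK is its coding sequence of 381 bases, so its level per length is not corrected for reads outside it.

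Each TTP clone was lower than the EV clones in both classes, and TTP_E11 was the lower of the TTP clones for several HIST genes. Against both EV clones, 14 HIST and 9 replacement genes fell in TTP_H3, where 32% of all genes fell, and 18 HIST and 8 replacement genes fell in TTP_E11, where 32% of all genes fell as well. In both contrasts 0 members rose, where 32.7% of all genes rose in TTP_H3 and 32.6% in TTP_E11. These contrasts share their EV libraries. In TTP_H3 relative to TTP_E11, 4 HIST genes were higher and 0 lower, where 6.35% of all genes were higher and 5.32% lower. They were HIST1H2BD with 0.50 ± 0.09 (SE, limma adjusted p = 0.000227), HIST1H2AC with 0.35 ± 0.1 (SE, limma adjusted p = 0.0216), HIST1H1C with 0.32 ± 0.073 (SE, limma adjusted p = 0.00412) and HIST1H2BK with 0.23 ± 0.052 (SE, limma adjusted p = 0.00346). Among replacement genes only H2AFX passed, with 0.13 ± 0.033 (SE, limma adjusted p = 0.00838), and without TTP_E11 replicate 4 or without TTP_H3 replicate 1 the count was 3. ZFP36 itself was also higher in TTP_H3 than in TTP_E11, by 0.453 on the log2 scale (limma adjusted p = 1.71e-06). Each level of ZFP36 is 1 clone, so its level and the clone cannot be told apart, and an effect of its level was not tested.

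The EV clones differed from each other as well. In EV_B relative to EV_A, 6 HIST genes rose and 0 fell, where 20.2% of all genes rose and 16.6% fell, and the other 18 did not pass the threshold. The count that rose is near the share over all genes. Of the 24 fitted differences 23 were above 0, with a median of 0.29. The 6 were HIST1H4C with 0.65, HIST1H2BJ with 0.53, HIST1H2BC with 0.53, HIST1H1C with 0.33, HIST1H2BK with 0.30 and HIST1H4I with 0.23 on the log2 scale. Of the replacement genes, H2AFZ, H2AFV, H3F3B and H2AFY rose, with 0.28, 0.26, 0.26 and 0.10, and H1F0 fell by 0.32. Clones that lack the TTP plasmid thus differed by an amount near the TTP change for H2AFZ, at 0.28 between EV clones and -0.26 between arms. Among members not called between arms, HIST1H4C, HIST2H2BB and HIST1H3H differed by 0.65, 0.60 and 0.44 between EV clones, against -0.093, -0.41 and -0.28 between arms. The difference between EV clones was also the larger for HIST1H2AM and HIST2H2AC. For most members the change between arms was the larger. Against EV_A alone 13 HIST and 8 replacement genes were lower in TTP, where 33.5% of all genes were lower, and against EV_B alone 19 and 9, where 30.5% of all genes were lower.

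EV_B replicate 4 bears on the HIST levels of its clone. Its sum over the 21 coding HIST genes was 4005 normalized counts, against 4918 to 5039 in the other EV_B libraries, and it was the lowest of the 4 for 13 of the 21 genes. The same library was the highest of the clone for 25 of 35 S phase genes, 19 of 36 histone chaperones and 16 of 28 genes of histone mRNA processing. TTP_H3 replicate 3 was the highest of its clone for 27 of the 35 S phase genes and the lowest for 8 of the 21 HIST genes, a count that TTP_E11 replicate 2 and EV_A replicate 1 reached as well. TTP_E11 replicate 4 was the highest of its clone for 17 of the 35 S phase genes and had the highest HIST sum of that clone, at 2534 normalized counts. How often each library was the highest or lowest of its clone over all listed genes was not counted. EV_B replicate 4 and TTP_H3 replicate 3 stood apart in the principal component analysis, which used all listed genes. The counts above are therefore not shown to be particular to these lists. Whether S phase content bears on these values was not tested. Without EV_B replicate 4 and TTP_H3 replicate 3, 18 HIST and 9 replacement genes fell in TTP relative to EV, where 35.3% of all genes fell.

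Genes around histone supply rose and fell in shares near those of all genes. Of 28 listed genes of histone mRNA transcription, processing and decay, 11 (39.3%) rose and 9 (32.1%) fell, where 35.4% and 34.6% of all genes did, with a median of 0.022, and 5 rose and 4 fell by the rule of all 4 contrasts, where 19% and 19.5% of all genes did. ZNF473, which encodes a zinc finger protein that binds the U7 particle of histone pre-mRNA processing, averaged 814 ± 106 in TTP_H3 and 781 ± 16.4 in TTP_E11, against 438 ± 39.5 in EV_B and 359 ± 24.6 in EV_A, with a log2 change of 1.00 ± 0.051 (SE, limma adjusted p = 5.71e-17). LSM11, a core protein of that particle, averaged 354 ± 12.1 in TTP_H3 and 373 ± 25.1 in TTP_E11, against 257 ± 44.8 in EV_B and 217 ± 29.7 in EV_A, with 0.63 ± 0.068 (SE, limma adjusted p = 1.54e-09). NPAT, the coactivator that brings histone genes under cyclin E and CDK2, averaged 1067 ± 56.1 in TTP_H3 and 1160 ± 49.4 in TTP_E11, against 911 ± 41.1 in EV_B and 927 ± 57.7 in EV_A, with 0.28 ± 0.036 (SE, limma adjusted p = 4.07e-08).

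SLBP, which binds the stem-loop, averaged 1864 ± 77.2 in TTP_H3 and 1907 ± 39.7 in TTP_E11, against 2185 ± 30.9 in EV_B and 1946 ± 86.9 in EV_A, with -0.13 ± 0.027 (SE, limma adjusted p = 9.65e-05), and did not pass against each EV clone. CCNE2, a cyclin E gene, averaged 289 ± 25.0 in TTP_H3 and 256 ± 13.3 in TTP_E11, against 407 ± 35.2 in EV_B and 327 ± 11.1 in EV_A, with -0.42 ± 0.053 (SE, limma adjusted p = 1.54e-08). EP300, a histone acetyltransferase gene, averaged 1439 ± 78.0 in TTP_H3 and 1371 ± 44.5 in TTP_E11, against 1752 ± 93.8 in EV_B and 1988 ± 66.8 in EV_A, with -0.41 ± 0.031 (SE, limma adjusted p = 2.17e-13). These means are normalized counts ± SD over 4 libraries. The summed HIST counts were lower in both TTP clones, in which NPAT, LSM11 and ZNF473 were higher and CCNE2 and EP300 were lower. ZNF473, LSM11, CCNE2 and EP300 were named by their change between arms, so this only restates the difference between arms. Between the EV clones, EV_B had the higher HIST sum. Its means of ZNF473, LSM11 and CCNE2 were also higher, and those of EP300 and NPAT were lower. Whether any of these genes bears on the HIST counts was not tested.

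Of 36 histone chaperones and exchange factors, 11 (30.6%) rose and 13 (36.1%) fell, again near the shares of all genes, with a median of 0.004. HJURP, the chaperone of the centromeric H3 variant, had a log2 change of -0.66 ± 0.034 (SE, limma adjusted p = 1.32e-17), and OIP5, a subunit of the complex that prepares centromeres for it, had -0.61 ± 0.059 (SE, limma adjusted p = 5.25e-11). CENPA, the gene of that variant, averaged 626 ± 40.6 in TTP_H3 and 603 ± 29.9 in TTP_E11, against 858 ± 15.3 in EV_B and 745 ± 64.2 in EV_A, with -0.38 ± 0.041 (SE, limma adjusted p = 7.88e-10); its symbol lies outside the rule for histone genes and it was named after its value was seen. NASP, a chaperone of H3 and H4, rose with 0.48 ± 0.026 (SE, limma adjusted p = 3.39e-17), and ZNHIT1, a subunit of the complex that deposits H2A.Z, rose with 0.46 ± 0.032 (SE, limma adjusted p = 3.07e-14). Of the chaperones that load H3 at replication, ASF1B gave -0.22 ± 0.029 (SE, limma adjusted p = 4.38e-08) and CHAF1A 0.22 ± 0.028 (SE, limma adjusted p = 2.55e-08). Of those that load H3.3, HIRA gave -0.10 ± 0.047 (SE, limma adjusted p = 0.0696) and DAXX 0.23 ± 0.023 (SE, limma adjusted p = 2.77e-10).

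**Figure D5:**
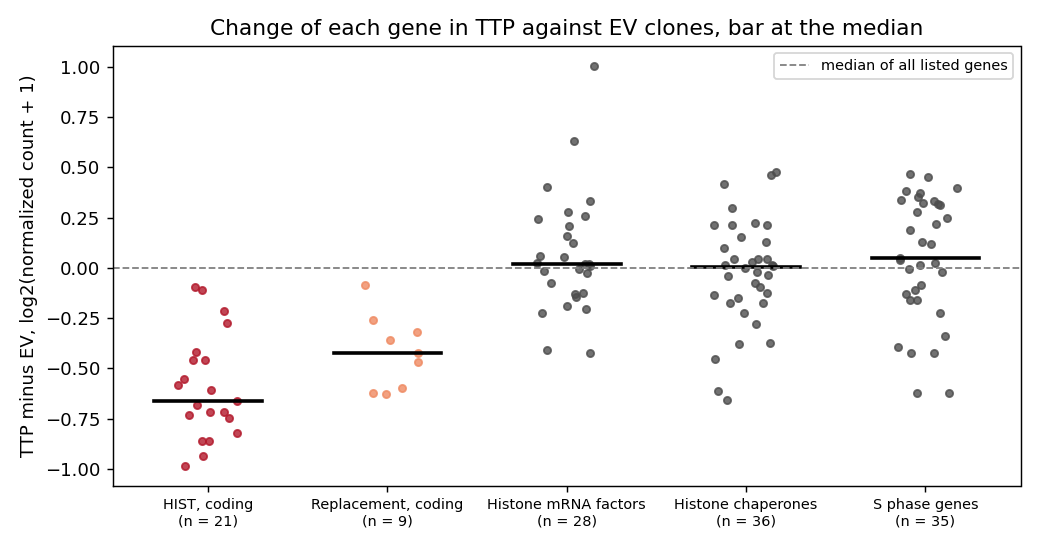
Fitted TTP minus EV change on the log2(normalized count + 1) scale for each coding HIST gene, each coding replacement gene and each gene of 3 lists (points), with the median of each set (bar) and of all listed genes (dashed line). The histone genes all lie below 0, whereas the 3 lists spread on both sides, with medians of 0.022, 0.004 and 0.05.

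Of 35 S phase genes, which include SLBP and CCNE2, 17 (48.6%) rose and 12 (34.3%) fell in TTP relative to EV, where 35.4% and 34.6% of all genes did, with a median of 0.05. By the rule of all 4 contrasts 14 rose and 7 fell, where 19% and 19.5% of all genes did. RRM2, a subunit of ribonucleotide reductase, had a log2 change of -0.62 ± 0.031 (SE, limma adjusted p = 4.43e-17), and E2F1, a transcription factor of S phase entry, had -0.62 ± 0.027 (SE, limma adjusted p = 1.1e-19). CDT1, a licensing factor, rose with 0.47 ± 0.039 (SE, limma adjusted p = 2.04e-12), and GINS2, a subunit of the replicative helicase, rose with 0.45 ± 0.045 (SE, limma adjusted p = 1.44e-10). The 6 listed MCM genes, named after their values were seen, encode further helicase subunits. MCM3, MCM5, MCM6 and MCM7 rose with 0.37, 0.33, 0.35 and 0.31, MCM2 rose with 0.19 but did not pass in all 4 contrasts, and MCM4 gave 0.04 (limma adjusted p = 0.19). Between EV clones, 27 of the 35 rose in EV_B relative to EV_A and 1 fell, with a median of 0.168, where 20.2% of all genes rose and 16.6% fell. Of the 24 HIST genes 6 rose there, near the share of all genes. Yet 23 of the 24 fitted differences were above 0, with a median of 0.293. Whether the HIST and S phase differences between EV clones are linked was not tested.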

How the data were processed

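RNA of 16 cultures of MDA-MB-231 clones was sequenced after library preparation with a NEBNext kit, per the labels' protocols. STAR 2.5.2b, Trimmomatic 0.36, Subread 1.5.2 with featureCounts, DESeq2 and GRCh38 appear in the submitters' processing notes without settings, and no gene annotation is named there. The authors deposited a normalized signal per gene and library, called normalized counts here; its values are read counts over a size factor of each library. Per the file headers, a log2 fold change and a p-value of the authors' own TTP against EV comparison are deposited beside it. The smallest gene mean was 9.68, so genes below some limit were not analysed here. In each library 100% of values were whole multiples of 1 read within 0.001, which gave back the reads. For TTP_H3 replicates 1 and 3 a read was worth so near 1 that this check is weak.

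limma 3.58.1 (R 4.3.3, robust trend) was fitted on log2(value + 1) over all 14857 genes with 4 clone groups, tested on simulated data. The alternatives were DESeq2 1.42.0 and edgeR 4.0.16 on recovered reads, other scalings, pseudocounts (0.1 and 5), a filter (mean of at least 50), 2 groups, summed clones, single EV clones and leaving out each library. The ratio test used scipy 1.17.1. Gene models were GENCODE 29. The members, lists and tests were chosen with earlier results of these data known, and the lists came from textbook roles. All members are named; per-library values are given for the 4 of each class with the largest called change and the 2 most abundant, plus H3F3A, added after its values were seen. At most 4 concordant genes of each list are named by size of change, with SLBP, NPAT, ASF1B, CHAF1A, HIRA and DAXX. Same-numbered libraries of different clones did not deviate together (r between -0.0883 and 0.0962 over 24 pairs), so numbers do not pair libraries.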

Additional observations from a re-analysis of the deposited data

Results flagged for a closer look

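In 10 of 140 groups of 4 libraries 1 library lay far from the other 3, where chance gives about 1 in 20. EV_B replicate 4 was low for HIST1H2AC (300.0 normalized counts, against 442 to 448 in the other EV_B libraries), HIST1H2BK (1505, against 1833 to 1901), HIST1H4I (523, against 601 to 612) and HIST2H2BF (13.2, against 19.8 to 20.1). TTP_E11 replicate 3 was low for HIST1H2AC (157, against 189 to 194) and high for HIST1H4C (70.6, against 40.5 to 45.1). EV_A replicate 1 was high for HIST1H4C (53.1, against 37.1 to 39.0) and low for H2AFJ (435, against 479 to 486). HIST2H2BA was high in EV_B replicate 3 (59.0, against 43.2 to 45.5), and H3F3A was high in EV_A replicate 2 (2185, against 2107 to 2119).

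The change against the EV clones differed between TTP_H3 and TTP_E11 for 5 members, by the contrast of TTP_H3 with TTP_E11 in limma. HIST1H2BD differed by 0.502 on the log2 scale (adjusted p = 0.000227), HIST1H2AC by 0.354 (adjusted p = 0.0216), HIST1H1C by 0.315 (adjusted p = 0.00412), HIST1H2BK by 0.229 (adjusted p = 0.00346) and H2AFX by 0.128 (adjusted p = 0.00838), all higher in TTP_H3.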

How the results depend on the processing

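Of 408 recomputed counts, 402 stayed within 1.5 times their value. A filter at a mean of at least 50 normalized counts left 10 HIST genes, of which 9 were lower in TTP relative to EV, 8 in TTP_H3 and 9 in TTP_E11 relative to both EV clones; these counts fell because fewer genes were tested. Leaving out each library in turn gave 17 to 20 HIST and 9 replacement genes lower in TTP. In TTP_H3 relative to TTP_E11 it gave 1 to 3 higher replacement genes, and 2 without both libraries that stood apart; the cause was not tested. With the replicate number as a block, 17 HIST and 9 replacement genes were lower, 10 and 8 of them in all 4 clone contrasts, and 1 of 16 libraries correlated best with its own number. HIST2H2AC ranged from -0.195 to 0.017 on the log2 scale with each library left out, turning positive without TTP_E11 replicate 3, and HIST1H4C turned to 0.231 against EV_A alone; neither was called there, and the cause was not tested. Of 1000 recomputed gene changes, 971 kept direction and side of the threshold, 14 lost and 13 gained a call. With the total of the listed genes as scale, the median of all genes moved to 0.068 and 17 HIST and 8 replacement genes were lower. The 6 uncalled HIST genes other than HIST1H4C had 4 to 45 reads per library, which limits the changes that could be detected.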
